A study of Homo sapiens with 2 samples.

Results

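The genes described here are those of the Hippo and TGF-beta signalling pathways that the authors called changed in SNU-449 cells after ezetimibe. SNU-449 is a human hepatocellular carcinoma line, grown here in medium with serum, and ezetimibe is a drug that lowers cholesterol by blocking the transporter NPC1L1. RNA was sequenced from 1 control library and from 1 library of cells given ezetimibe for 24 h. The sources used here give neither a dose nor a vehicle. The genes were taken from the authors' deposited table of KEGG pathways as the union of the rows for Hippo signaling and TGF-beta signaling. Genes that are also in the rows for cytokine-cytokine receptor interaction or cell cycle were taken out, which left 69 of the 2238 genes that the table lists as changed. They were thus selected on the authors' call of change in this same comparison. The table holds no level or fold change of any gene, so what follows are directions in 1 pair of libraries, with no replicate and no test. The comparison names ezetimibe first, and up was taken to mean higher in the ezetimibe library. Genes missing from the table may lack a call of change, expression or a pathway.

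The Hippo pathway is a kinase chain that senses cell contact, polarity and tension. Its kinases phosphorylate the coactivators YAP1 and TAZ (the product of WWTR1) and keep them out of the nucleus; unphosphorylated YAP1 and TAZ bind TEAD factors and switch on genes such as CTGF (now named CCN2). In liver the pathway is known for limiting organ size and for its link to liver cancer. TGF-beta and BMP ligands act through receptor kinases that phosphorylate SMAD proteins, which enter the nucleus and switch on targets such as the ID genes and the inhibitory SMADs. KEGG draws Wnt ligands, Frizzled receptors and the BMP branch into the Hippo map, so those genes are included.

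The sequences shown first are promoter stretches picked by hand from genes listed as down. In each the letters bound by TEAD or by SMAD proteins occur, since these factors stand at the end of the pathways. The stretches are RefSeq sequences on GRCh38.p14, written 5′ to 3′ on the gene's strand, and capitals mark the match. Positions count back from the RefSeq start site. The TEAD motif searched was GGAATG on either strand, so that CATTCC is the same motif read from the other strand. CTGF, at chr6:131951447-131951556 on the minus strand, held 3 matches between bases -184 and -75. FGF1, at chr5:142644408-142644489 on the minus strand, held 2 matches before 1 of its 4 start sites, inside the span of the gene but outside its exons. THBS1 (chr15:39581018-39581053, plus strand), YAP1 (chr11:102110270-102110305, plus strand), TGIF2 (chr20:36573370-36573405, plus strand) and SMAD5 (chr5:136132627-136132662, plus strand) held 1 match each, outside the span of the gene in GENCODE 29. SMAD6, at chr15:66702209-66702235 on the plus strand, held the SMAD palindrome GTCTAGAC at base -12; 8 bases of this stretch lie in an exon of SMAD6 in GENCODE 29.
CTGF: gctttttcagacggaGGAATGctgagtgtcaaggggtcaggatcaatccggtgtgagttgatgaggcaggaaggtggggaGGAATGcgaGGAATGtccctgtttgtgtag
FGF1: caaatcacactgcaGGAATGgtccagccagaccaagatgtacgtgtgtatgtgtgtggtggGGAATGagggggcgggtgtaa
THBS1: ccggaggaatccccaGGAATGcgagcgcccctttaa
YAP1: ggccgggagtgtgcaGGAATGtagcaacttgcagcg
TGIF2: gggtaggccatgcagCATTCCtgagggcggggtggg
SMAD5: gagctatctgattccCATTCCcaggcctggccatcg
SMAD6: cggagccgccaaagtGTCTAGACtggc

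Of the 69 genes, 60 were listed as down and 9 as up after ezetimibe. The share down was 87.0% and the share up 13.0%, beside 67.5% and 32.5% of all 2238 listed genes. Other pathways differed widely: 8 of 81 changed cell cycle genes were up, and 33 of 66 changed genes of cytokine-cytokine receptor interaction. A low share up was thus not particular to the 69 genes. As background, the authors called 25.2% of the 8877 pathway genes changed, 8.20% up and 17.0% down. Of the 160 Hippo genes in the background 72 were called changed (45.0%), and of the 99 TGF-beta genes 37 (37.4%); these rows chose the genes, so nothing is read from those shares. In the authors' deposited table the enrichment p was 6.19e-06 for Hippo signaling (rich factor 1.78, q = 0.000289) and 0.0188 for TGF-beta signaling (rich factor 1.48, q = 0.0918). The rich factor divides a pathway's share of the changed genes by its share of the background. Both treat each gene as an independent unit and speak of these 2 libraries alone. After the subtraction 55 genes came from the Hippo row, 8 up and 47 down, and 17 from the TGF-beta row, 1 up and 16 down. The 3 genes in both rows, ID1, SMAD7 and PPP2R1B, were all down.

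By role, 6 of 13 groups held genes listed as down alone and 7 held genes of either direction; no group was wholly up. In 11 groups more genes were down than up, and in 2 groups the numbers were equal.

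**Figure D1:**
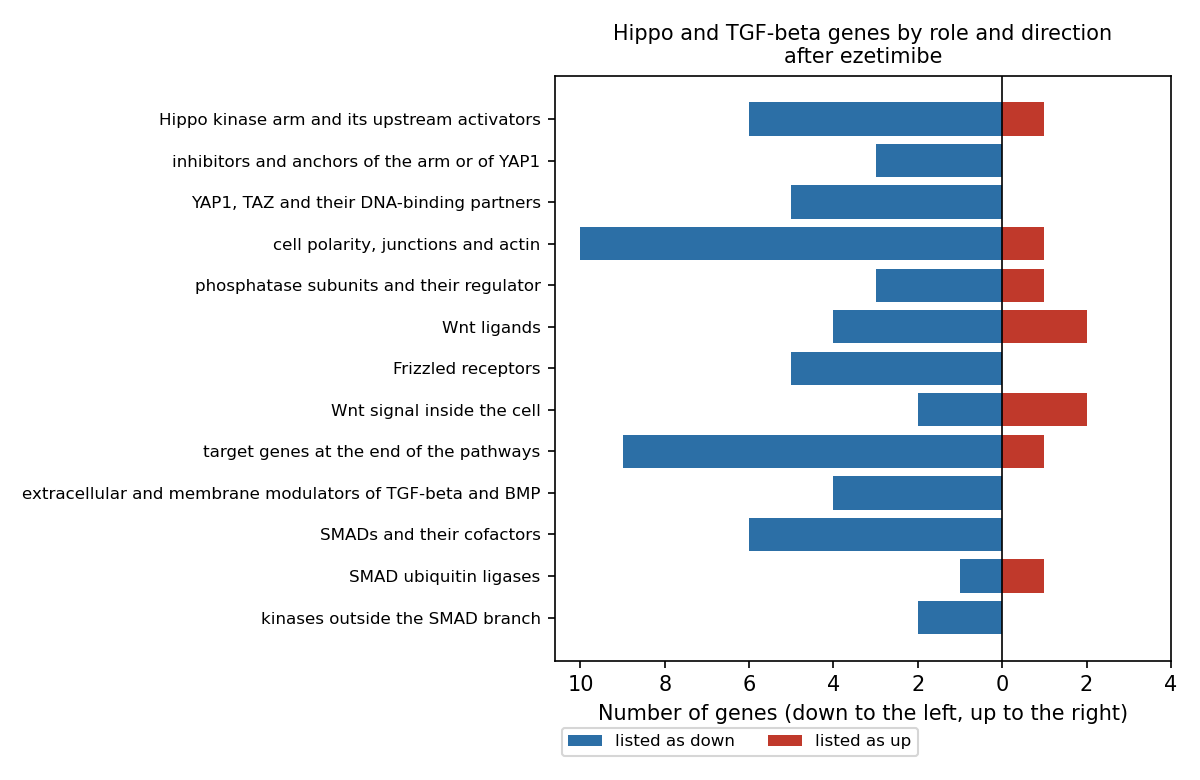
Number of Hippo and TGF-beta genes listed as down (bars to the left) and up (bars to the right) after ezetimibe, by role. Polarity and junction genes (10 down, 1 up) and target genes (9 down, 1 up) form the longest bars, and the Wnt ligands (2 up) and the Wnt signal inside the cell (2 up) hold more genes listed as up than any other role.

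The kinase arm and its activators had 6 genes down and 1 up. Down were the kinase STK3 (MST2), the kinase cofactors MOB1A and MOB1B, the cytoskeletal tumour suppressor NF2 (merlin), its partner WWC1 (KIBRA) and the scaffold RASSF6. The scaffold RASSF1, which like RASSF6 binds the MST kinases, was up. STK4 (MST1), the close relative of STK3, is not in the Hippo row of the table but is listed under other pathways, as up; it was looked up after the other directions were seen. The kinases LATS1 and LATS2, which phosphorylate YAP1 directly, and the scaffold SAV1 were not listed. The 3 genes that restrain this arm or hold YAP1 at the membrane were all down. They are the LIM proteins AJUBA and LIMD1, which bind and inhibit LATS kinases, and AMOT, which binds YAP1 at junctions and actin.

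The effectors went the same way as 6 of the 7 genes grouped here as the arm that restrains them. All 5 genes of this group were listed as down: the coactivators YAP1 (ENSG00000137693; chromosome 11, 102110461 to 102233423) and WWTR1 (ENSG00000018408; chromosome 3, 149517235 to 149736714), the DNA-binding factors TEAD1 (chromosome 11, 12674591 to 12944483) and TEAD2, and the p53 relative TP73, a partner of YAP1. Coordinates are from GENCODE 29 on GRCh38, matched by gene ID; the sources used here do not name the authors' build. TEAD3 and TEAD4 were not listed. A smaller KEGG map, Hippo signaling in multiple species, which holds the core shared between animals, listed 13 of these genes, 12 down and RASSF1 up. Its other 3 changed genes, the atypical cadherin FAT4 and the scaffolds RASSF2 and RASSF4, were down as well.

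Cell polarity and junction genes had 10 down and 1 up. The polarity scaffold PARD3 and the 3 PARD6 genes, PARD6A, PARD6B and PARD6G, were down with the atypical protein kinase C gene PRKCI, which their products bind. The second atypical kinase, PRKCZ, was up. MPP5 (now PALS1) of the apical Crumbs complex, DLG1 and DLG4 of the Discs large family, E-cadherin CDH1, which holds neighbouring cells together, and beta-actin ACTB were down. Of the phosphatase genes, the catalytic subunits PPP1CB and PPP1CC and the scaffold PPP2R1B were down, and TP53BP2 (ASPP2), a regulator that binds protein phosphatase 1, was up.

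The Wnt genes drawn into the Hippo map had 4 of 15 up, beside 5 of the 54 genes with other roles. The ligands WNT2, WNT2B, WNT5A and WNT7B were down, and WNT9A and WNT11 up. All 5 listed Frizzled receptors, FZD2, FZD3, FZD4, FZD6 and FZD8, were down. Inside the cell the receptor adaptor DVL1 and the scaffold AXIN1, which organises destruction of beta-catenin, were up. APC2, a member of the same destruction complex, and TCF7L2, a DNA-binding partner of beta-catenin, were down.

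Of 10 target genes, 9 were down and 1 up. CTGF (ENSG00000118523; chromosome 6, 131948176 to 131951373), a secreted matrix protein and the usual readout of YAP1 and TEAD activity, was down. So were FGF1, a growth factor, GLI2, a transcription factor of Hedgehog signalling, SOX2, a stem cell factor, AFP, the fetal liver protein used as a liver cancer marker, and the apoptosis inhibitors BIRC2 and BIRC5. ID1 and ID3, inhibitors of helix-loop-helix factors and standard targets of BMP SMADs, were down. BBC3 (PUMA), a p53 and p73 target that promotes apoptosis, was the gene listed as up.

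The TGF-beta side was down except for SMURF1. Outside the cell and at the membrane these were LTBP1, which stores latent TGF-beta in the matrix, THBS1, which can activate it, NEO1, a receptor that works with BMP coreceptors, and BAMBI, a decoy receptor. The SMAD group had 6 of 6 down: the BMP-responsive SMAD5 and SMAD9, the inhibitory SMAD6 and SMAD7 (ENSG00000101665; chromosome 18, 48919853 to 48952052), the endosomal SMAD anchor ZFYVE16 and the corepressor TGIF2. Genes that carry the signal and genes that block it (SMAD6, SMAD7, BAMBI and TGIF2) were thus listed in the same direction. Of the SMAD ubiquitin ligases SMURF1 was up and SMURF2 down. The cytoskeletal kinase ROCK1 and the S6 kinase RPS6KB1, which act outside the SMADs, were down. SMAD1, SMAD2, SMAD4, TGFBR1 and TGFB1 were not listed.

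The 25 genes taken out had 6 up and 19 down, a share up of 24.0%. Among ligands TGFB2, TGFB3, BMP4, BMP5, BMP8B, GDF7 and INHBB were down and BMP6 up; among receptors TGFBR2, BMPR1A and BMPR2 were down and ACVR1 and ACVR1B up. SMAD3, the cyclins CCND1 and CCND3 and the 14-3-3 gene YWHAQ were down, and YWHAB, MYC and E2F4 up. With these genes put back, 15 of 94 were up.

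A pair of target lists from textbook knowledge was read in the whole table. Of 23 YAP1 and TAZ targets 8 were listed, 1 up and 7 down: CTGF, AJUBA, WWC1, the angiomotin relative AMOTL2, the receptor kinase AXL, the ectonucleotidase NT5E and TGFB2 were down and the stress gene GADD45A up. Of these 8, 3 are also among the 69 genes, and the other 5 had 1 up and 4 down. Of these 5, TGFB2 is among the 25 genes taken out of the same rows. The targets CCN1 and ANKRD1 were not listed. Of 24 TGF-beta and BMP targets 13 were listed, 3 up and 10 down. The 6 that are among the 69 genes (SMAD6, SMAD7, THBS1, ID1, ID3 and BAMBI) were down. Of the 7 others 4 were down (SKIL, COL1A1, FN1 and CDH2) and 3 up (SNAI1, BHLHE40 and CDKN1A). As background for both lists, 25.2% of the pathway genes were called changed and 67.5% of all listed genes were down. The targets among the 69 genes were already counted above, so only the others add to those counts. The lists were not limited to pathway genes, and a gene outside every pathway cannot be listed. The shares of the lists that were listed are thus not matched to the 25.2%. The lists were chosen with earlier results of these data known.

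The direction of the 69 genes went with the base composition of their transcripts, a property that the choice of genes did not use. The median GC content of the longest transcript was 59.6% over the 9 genes listed as up (47.6 to 69.7%) and 46.1% over the 60 listed as down (34.3 to 69.2%). Over all listed genes the medians were 55.2% for up and 43.6% for down. All 9 genes listed as up lay above the median of all listed genes, 47.0%, as did 28 of the 60 listed as down. The ranges overlap: APC2 (69.2%), FZD2 (64.9%), FZD8 (64.6%) and WNT7B (63.0%) were GC-rich and listed as down. Median transcript length was 3239 bases among genes listed as up and 5111 among the others of the 69, and over all listed genes it was 2859.5 and 4401 bases.

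**Figure D2:**
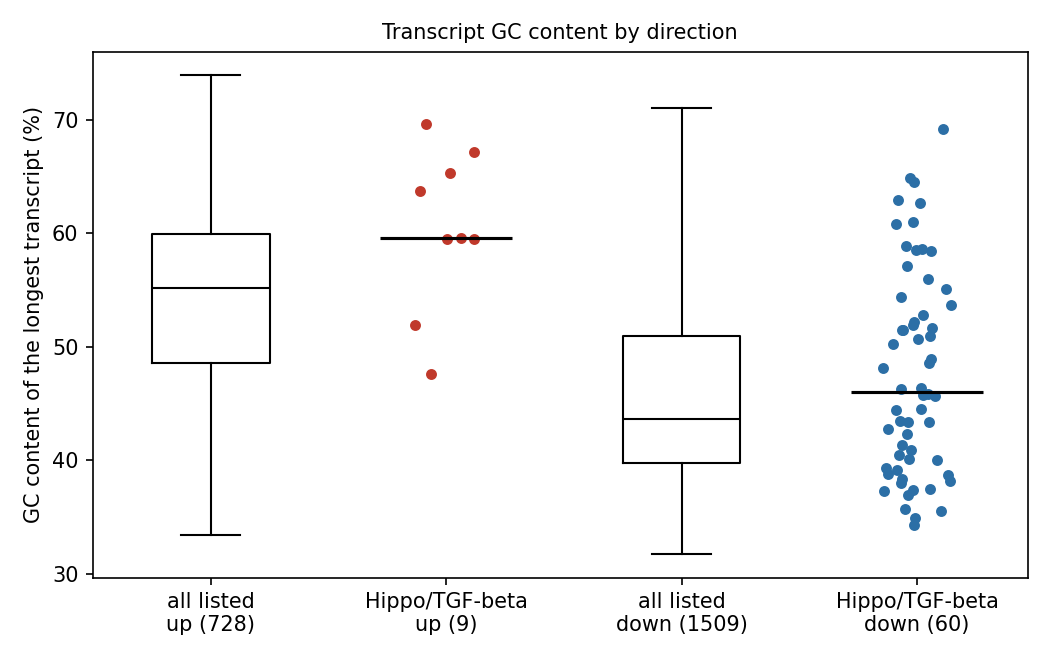
GC content of the longest transcript (percent) for all listed genes by direction (boxes: median and quartiles, whiskers to the lowest and highest gene, the 69 genes included) and for each Hippo or TGF-beta gene (points, with a line at the median). The points for genes listed as up centre on 59.6% and those for genes listed as down on 46.1%, with overlap.

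Within 3 classes of GC content the share up was lower among the Hippo and TGF-beta genes than among the other listed genes. The classes are wide (53.1 to 73.9% GC in the highest), and transcript length was not matched. In the lowest of 3 equal classes of listed genes 0 of 22 were up, beside 7.04% of 724 others. In the middle class 2 of 24 were up (8.33%), beside 33.8% of 721 others. In the highest class 7 of 23 were up (30.4%), beside 58.6% of 723 others. The part of base composition in any one gene's direction was not tested.

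**Figure D3:**
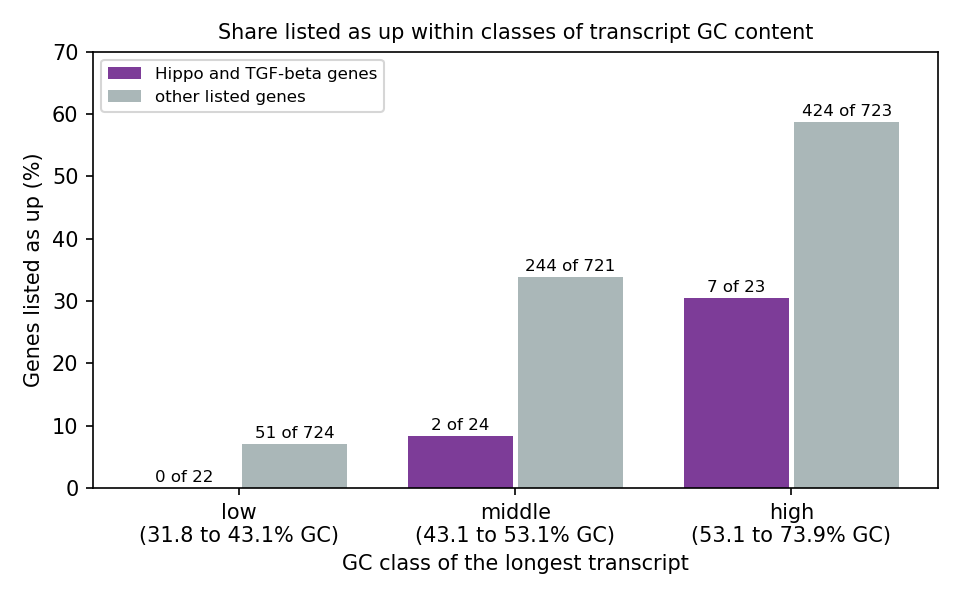
Share of genes listed as up (percent) in 3 classes of transcript GC content, equal in size over all listed genes, for the Hippo and TGF-beta genes and for the other listed genes, with the counts above the bars. The share rises with GC content in either set, and the Hippo and TGF-beta bar is the lower one in each class (0, 8.33 and 30.4% beside 7.04, 33.8 and 58.6%).

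Families with members in either direction were set side by side after their directions were seen. In 3 pairs the gene listed as up had the more GC-rich transcript. For the scaffolds GC content was 65.3% in RASSF1 (up) and 37.5% in RASSF6 (down). For the atypical kinases it was 59.6% in PRKCZ (up) and 39.1% in PRKCI (down). For the ubiquitin ligases it was 51.9% in SMURF1 (up) and 39.3% in SMURF2 (down). The Wnt ligands followed this order in part. WNT9A and WNT11 (59.5% each) were up and WNT2 (45.9%), WNT2B (44.6%) and WNT5A (42.3%) down, but WNT7B (63.0%) was down. In the destruction complex the order was reversed: APC2 (69.2%) was down and AXIN1 (63.8%) up.

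Genes annotated narrowly, to these pathways and little else, were down with 1 exception. Of 28 genes under 1 to 3 pathways 27 were down, among them YAP1, WWTR1, TEAD1, CTGF and the SMADs, and TP53BP2 was up (3.57% up, beside 33.3% of 1557 other genes annotated as narrowly). Of 16 genes under 4 to 10 pathways 3 were up (18.8%), beside 140 of 445 others (31.5%), and of 25 under 11 or more 5 were up, beside 61 of 167 others. The genes also stood in other pathways, of which examples are given. Human papillomavirus infection held the most, 26, with 5 up (19.2%), beside 32.1% of its 106 other changed genes. In Melanogenesis 3 of 13 were up (23.1%), beside 17.4% of 23 others. The 13 in Tight junction had 12 down and 1 up, PRKCZ, while its 41 other changed genes had 10 up. In Wnt signaling 4 of 16 were up (25.0%), beside 23.4% of the 47 other changed genes there, and in Endocytosis 2 of 9, beside 34 of 70. On chromosome 1 lay 7 of the genes, 4 of them up (DVL1, PRKCZ, TP53BP2 and WNT9A). Of all 222 listed genes there, 72 were up. This chromosome is named because it held the most of the genes listed as up, so nothing is read from its share.

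The motifs of the pathways' own factors were then counted over all promoter windows of the genes. RefSeq windows of 300 bases (250 before the start and 50 after) were matched for 56 of the 69 genes, 91 windows in all, since a gene can have several starts. GGAATG was in 12 of 91 windows (13.2%), beside 14.03% of all 35116 human promoter windows and 11.3% of those of listed genes. The genes were AJUBA, BBC3, CTGF, FGF1, ID1, PRKCI, RASSF1, SMAD5, TGIF2, THBS1 and YAP1, of which BBC3 and RASSF1 were listed as up. By direction, GGAATG was in 2 of 11 windows of genes listed as up (18.2%) and in 10 of 80 windows of genes listed as down (12.5%). CTGF held 3 matches, and 3 or more were found in 45 of all windows (0.128%). The SMAD motif CAGACA was in 12.1% of the 91 windows, beside 16.9% of all windows and 13.7% of those of listed genes. The BMP SMAD motif GGCGCC was in 25.3%, beside 19.2% of all windows and 26.6% of those of listed genes. The AP-1 motif TGANTCA was in 5.49%, beside 7.71% of all windows and 5.50% of those of listed genes. The palindrome GTCTAGAC was in the SMAD6 window alone, 1 of 91, beside 0.202% of all windows and 0.183% of those of listed genes. All motifs were searched on both strands; GTCTAGAC, GGCGCC and TGANTCA read the same on either, and no motif contains another. A match describes the letters and does not show binding.

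**Figure D4:**
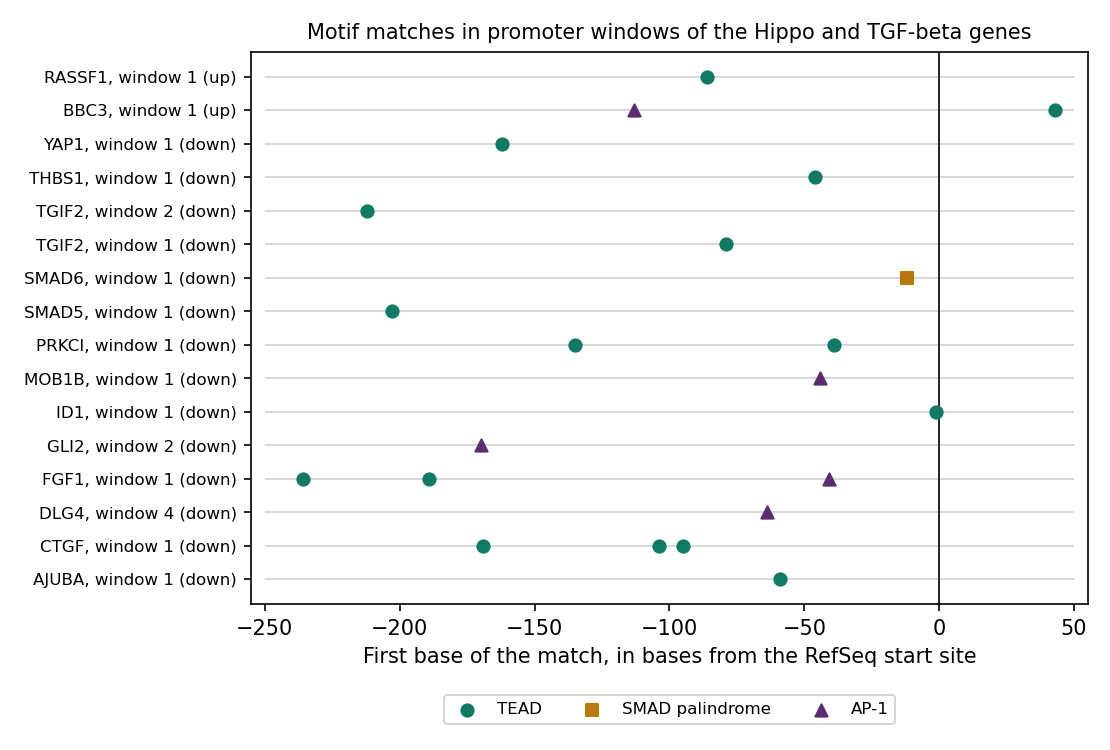
Position of the first base of each TEAD, SMAD palindrome and AP-1 match, in bases from the RefSeq start site (vertical line), in the promoter windows of the Hippo and TGF-beta genes that hold one; windows of a gene are numbered along the chromosome. CTGF has 3 TEAD matches, FGF1 and PRKCI 2 each, and the TGIF2 windows overlap and share 1 match.

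Some of the genes share exonic bases with other genes in the annotation. Exons of 28 of the 69 genes overlap a gene on the opposite strand in GENCODE 29, 6 of those up and 22 down, and the sources used here do not say whether counting used strand. Among the genes listed as up these were BBC3, DVL1, PRKCZ, RASSF1, SMURF1 and WNT11. Those listed as down included YAP1, WWTR1, TEAD2, TP73, STK3, CTGF, THBS1 and SMAD5, so the same limit holds for them. The share with such an overlap over all listed genes was not computed. Without these 28 genes 3 of 41 were up (7.32%; AXIN1, TP53BP2 and WNT9A). Exons of 10 genes overlap a gene on the same strand, and 6 genes have pseudogenes of their own name, whose reads may be shared. They are ACTB with 10 copies, YAP1 and MOB1A with 2 each, and ROCK1, SMURF2 and TGIF2 with 1 each. Sharing of reads was not measured. The directions of these 6 genes are to be read with caution for this reason, that of ACTB foremost. Pseudogenes under other names were not counted, so other genes may have copies too. In bulk RNA a smaller share of cells that express a gene and less of its RNA per cell cannot be told apart. The table holds no levels, so the line could not be checked against liver markers by level. Of 10 hepatocyte markers 4 were listed (CPS1, FGA, FGB and FGG), all as down, as were 2 of 5 cholangiocyte and 3 of 5 fibroblast markers; of 4 immune markers CD68 was up and CD14 down, and 0 of 4 endothelial markers were listed. Their part in the directions was not tested.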

How the data were processed

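The submitters' processing notes name HISAT2 2.0.4 and StringTie 1.3.0. The sources used here give no build, annotation, threshold or read depth. The deposited table gives, per the file headers, for each of 327 pathways the numbers and names of changed genes by direction, a rich factor (a ratio) and a p-value and q-value by the authors. These were copied as deposited; gene numbers matched the gene lists in all 327 pathways. Directions, counts, shares and medians were computed here with Python 3.11.15 and NumPy 2.4.6, with no test, since each group has 1 library. Transcript GC content, length, span and exon overlaps came from GENCODE 29 by gene ID (2237 of 2238 genes), and promoter windows from RefSeq through the current symbol. Motif search was tested on simulated sequences. The genes and lists were chosen with earlier results of these data known. Every one of the 69 genes was named by role; roles were given by hand. Alternatives were other pathway rows, leaving out widely annotated genes, and other windows and strands.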

Additional observations from a re-analysis of the deposited data

How the results depend on the processing

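The share listed as up was 13.0% for the 69 genes. It was 5.88% (1 of 17) for the genes of the TGF-beta row left after the subtraction, while the whole TGF-beta row had 6 of 37 up (16.2%), and between 13.0 and 16.0% for the union without the subtraction, for the genes of the Hippo row left after it, and without genes under more than 20 or 40 pathways. Of the alternatives chosen after seeing the data, leaving out genes with opposite-strand overlap gave 7.32% and leaving out Wnt roles 9.26%. The share over all listed genes, 32.5%, was 32.4 and 32.5% without widely annotated genes. The difference in median GC content between genes listed as up and down was 13.6 percentage points in transcripts and 11.1 in promoter windows (78.5% over 8 genes and 67.4% over 48); over all listed genes promoter medians were 65.1% for up and 64.3% for down. On the given strand alone, the TEAD motif was in 7 windows in place of 12 and the SMAD motif CAGACA in 5 in place of 11, since fewer positions are searched; in bases before the start they were in 10 and 8. The rich factors recomputed to the same values. No paired analysis was possible because each group has 1 library; for the same reason no library could be left out. Depth is unknown from this table, and genes of low level may be missing from it.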
